A study of Mus musculus with 6 samples.

Results

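The Notch genes examined here are the receptors Notch1, Notch2 and Notch3, the ligands Dll1, Dll3, Jag1 and Jag2, the nuclear effector Rbpj and the targets Hes1 and Hey1. They were taken by gene symbol, and each matched 1 locus, so that 10 of the 23244 loci in the files are described. Notch signalling passes between touching cells: a ligand on 1 cell binds a receptor on its neighbour, proteases then release the receptor's intracellular domain, and that domain joins the DNA-binding protein RBPJ and a Mastermind coactivator to switch on genes of the Hes and Hey families. HES and HEY proteins are repressors that hold back neuronal differentiation genes. In mouse embryonic stem (ES) cells, which come from the early embryo and can form every tissue of the body, the pathway is best known for its part in neural differentiation, and Hes1 is known to fluctuate between cells.

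RNA was sequenced from ES cells after removal of ribosomal RNA, in 3 control libraries and 3 null libraries. The control cells carried a floxed Zscan10 gene, built for Cre-loxP deletion but left undeleted, and their titles read Zscan10_f/f-Tx. The null cells were a subcloned Zscan10-null line with titles that read Zscan10_KO. Because the null cells were a subclone, the effects of the deletion and of the clone cannot be told apart. No label says that the libraries within a group came from different cultures, so p-values here reflect the scatter of these libraries, which may be technical.

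Zscan10 itself, the deleted gene, was at 44.2, 43.0 and 41.9 FPKM (fragments per kilobase of transcript, scaled to the size of the library) in the control libraries and at 5.49, 4.43 and 5.47 in the null libraries. FPKM totals ran from 664555 to 699401 over the 6 libraries. The smallest steps between low values gave relative depths of 0.986 to 1.09, and the same steps turned the FPKM of 9 of the 10 Notch genes into whole numbers of fragments. Rbpj, with 3 transcript accessions, was the exception. With transcript lengths these 9 genes placed the depth of control replicate 1 between 6240336 and 8199928 fragments. The spread between the control libraries was close to counting noise, with a mean variance 1.31 times that of counting alone over 7558 loci, against 2.45 times between the null libraries.

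Most of the Notch genes were at close levels with and without Zscan10. By limma on log2(FPKM + 1), with Benjamini-Hochberg adjustment over the 11480 loci whose mean reached 1 FPKM, 2 of the 9 Notch genes tested passed an adjusted p of 0.05. Rbpj rose by 13.1% and Hes1 fell by 14.1% in the null libraries. The 2 of 9 are 22.2%, beside 25.2% of all tested loci, so the genes were called about as often as any others. In single directions, 12.8% of all tested loci were higher and 12.4% lower. The median log2 fold change was 0.01 over the 9 genes and -0.003 over all tested loci. Dll1 fell under the minimum, with a mean of 0.971 FPKM. In bulk RNA, fewer cells expressing a gene and less RNA per cell cannot be told apart. Without control replicate 1 or control replicate 2 neither Notch gene passed, and the calls over all loci fell from 2894 to 1741 and 1697.

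**Figure D1:**
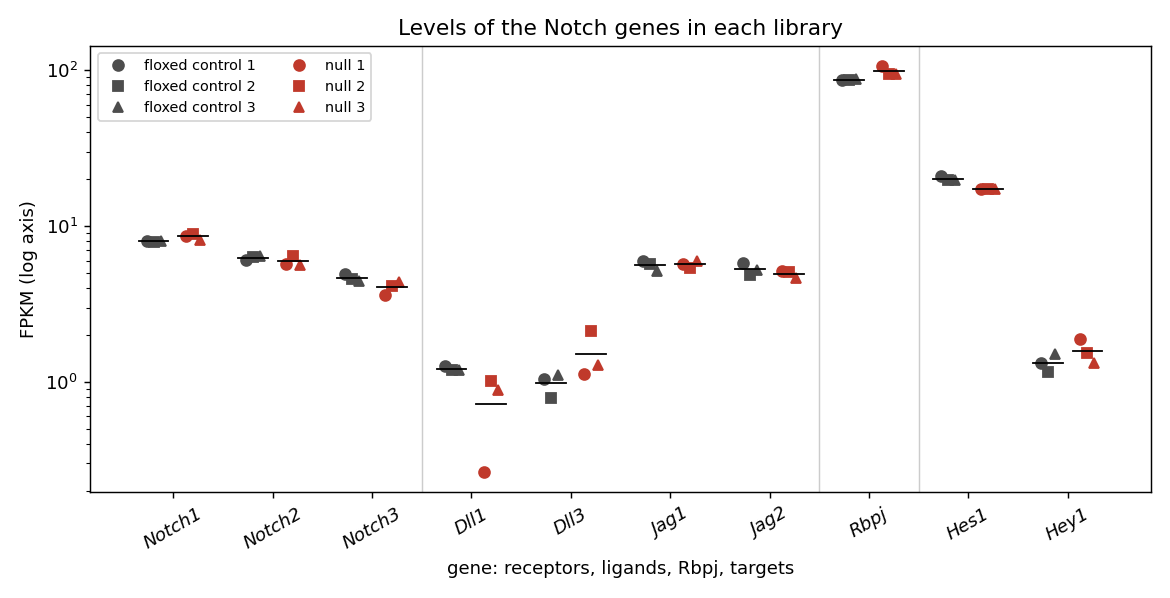
FPKM of each Notch gene on a log axis in the 3 control libraries (grey) and the 3 null libraries (red), with symbols for the replicates and a black line at each group's mean. Rbpj and Hes1 stand above the receptors and Jagged ligands, which lie between 3.62 and 8.88 FPKM, and null replicate 1 has the lowest Dll1 value, 0.264 FPKM.

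FPKM is a level per transcript length, so the genes can be ranked. In control cells Rbpj came first at 87.0 ± 1.08 FPKM (mean ± SD, n = 3, as in all such values here), followed by Hes1 at 20.1 ± 0.744. Next were Notch1, Notch2, Jag1, Jag2 and Notch3, from 7.97 down to 4.63 FPKM, and last Hey1, Dll1 and Dll3, from 1.33 down to 0.978. The ranges over the control libraries overlapped between Jag1 and Jag2, between Jag2 and Notch3 and between Hey1 and Dll1, so these neighbours had no order beyond their spread. In the null libraries the order of the means was the same except that Dll3 stood above Dll1. There Notch2 overlapped Jag1 and Hey1 overlapped Dll3, while the other neighbours did not overlap. The 3 receptors together summed to 18.7 to 19.0 FPKM in the control and 18.0 to 19.4 in the null libraries. The 4 ligands summed to 12.5 to 14.1 and 12.3 to 13.5 FPKM. These summed levels overlapped between the groups.

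The receptors span the membrane and become transcriptional activators once cleaved. The promoters of the 3 receptors are shown because each holds the N-box CACNAG, which reads CTNGTG on the other strand, a sequence bound by HES proteins. Each is the 250 bases before the annotated start, from RefSeq on GRCm38.p6, which is mm10, written 5′ to 3′ on the gene's own strand with the N-box in capitals. The windows are chr2:26503823-26504072 (minus strand) for Notch1, chr3:98013288-98013537 (plus) for Notch2 and chr17:32166891-32167140 (minus) for Notch3.
Notch1: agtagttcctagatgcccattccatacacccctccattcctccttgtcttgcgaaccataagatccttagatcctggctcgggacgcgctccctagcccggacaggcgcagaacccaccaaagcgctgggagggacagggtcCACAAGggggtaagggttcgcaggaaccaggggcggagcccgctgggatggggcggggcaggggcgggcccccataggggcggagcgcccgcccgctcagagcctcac
Notch2: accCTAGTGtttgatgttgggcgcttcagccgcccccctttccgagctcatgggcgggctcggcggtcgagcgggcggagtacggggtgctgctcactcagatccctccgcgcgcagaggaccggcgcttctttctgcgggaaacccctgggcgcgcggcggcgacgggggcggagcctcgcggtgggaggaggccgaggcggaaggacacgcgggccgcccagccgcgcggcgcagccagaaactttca
Notch3: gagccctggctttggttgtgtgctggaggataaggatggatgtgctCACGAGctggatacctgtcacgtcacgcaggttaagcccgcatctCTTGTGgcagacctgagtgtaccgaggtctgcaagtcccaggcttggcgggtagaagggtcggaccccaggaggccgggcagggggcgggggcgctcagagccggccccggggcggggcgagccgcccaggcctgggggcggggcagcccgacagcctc
The sequence bound by RBPJ, GTGGGAA, is shown from the promoter of the classical target Hes5, at chr4:154960687-154960713 and chr4:154960830-154960856 (plus strand), with capitals for its letters or, in the first stretch, for their reverse complement TTCCCAC.
Hes5, first stretch: ggcgagcgcgTTCCCACagcccggaca
Hes5, other stretch: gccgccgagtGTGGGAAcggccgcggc
The N-box was in 36.7% of the 32851 promoters in the table, so a match is common, and none of these 4 promoters held both motifs. The RBPJ sequence was in 5.42% of those promoters. It was in none of the 10 promoters listed for 8 of the Notch genes, Rbpj and Dll1 having 2 each. Both Rbpj promoters and that of Jag2 lie inside the gene spans given below, so the bases before the start of those spans were not searched. Hes1 and Hey1 were not matched. The receptors were the 3 Notch genes of these 8 with an N-box: 1 match in Notch1, 1 in Notch2 and 2 in Notch3. That of Notch4 held neither motif. A match is a run of letters and not a shown binding site.

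Notch1, on chromosome 2 (mm10, 26457902 to 26503822), was at 7.96, 7.91 and 8.02 FPKM in the control libraries, against 8.62, 8.88 and 8.19 in the null ones. The null libraries all lay above the control libraries, by 7.49% on average. This difference, 0.09 on the log2 scale (SE 0.06), did not pass (limma adjusted p = 0.271). The values rest on 1907 fragments in control and 2048 in null libraries, a depth-corrected ratio of 1.08 with a 95% counting interval of 1.01 to 1.15. Such intervals are exact conditional ones and cover counting error only.

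Notch2, on chromosome 3 (98013538 to 98150367), was at 6.09, 6.29 and 6.38 FPKM in the control libraries, against 5.72, 6.45 and 5.63 in the null ones. The groups overlapped, since null replicate 2 was the highest of the 6 and the other null libraries the lowest. The log2 fold change was -0.07 (SE 0.07, limma adjusted p = 0.522), and the fragment ratio of 0.952 had an interval of 0.888 to 1.02.

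Notch3, on chromosome 17 (32120820 to 32166896), the chromosome that also carries Zscan10, was at 4.92, 4.54 and 4.44 FPKM in the control libraries, against 3.62, 4.12 and 4.40 in the null ones. All null libraries lay below the control libraries, with null replicate 1 lowest and null replicate 3 close to control replicate 3. A log2 fold change of -0.16 (SE 0.08) did not pass (limma adjusted p = 0.199). Its 924 control and 806 null fragments gave a ratio of 0.874 (0.794 to 0.962).

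Notch4, the remaining mammalian receptor, is also on chromosome 17 (34564286 to 34588543) and was higher in the null libraries. It was at 3.16, 3.21 and 2.44 FPKM in the control libraries, against 4.72, 4.16 and 3.65 in the null ones, a log2 fold change of 0.40 (SE 0.12, limma adjusted p = 0.0434). The groups did not overlap, and the ratio of its 687 null to 486 control fragments was 1.42 (1.26 to 1.59). The call held without null replicate 3 (adjusted p = 0.0473) and was lost without any other single library (adjusted p = 0.0729 to 0.114).

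The ligands are membrane proteins of the Delta-like and Jagged families. Jag1, on chromosome 2 (137081451 to 137116520), was at 6.0, 5.71 and 5.18 FPKM in the control libraries, against 5.71, 5.34 and 5.96 in the null ones. The null values lay inside the control range. Jag1 had a log2 fold change of 0.01 (SE 0.08, limma adjusted p = 0.941), and the ratio of 1.0 had an interval of 0.908 to 1.11.

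Jag2, on chromosome 12 (112907803 to 112929812), was at 5.79, 4.85 and 5.22 FPKM in the control libraries, against 5.17, 5.04 and 4.64 in the null ones. The groups overlapped. The log2 fold change was -0.08 (SE 0.08, limma adjusted p = 0.515), and the ratio was 0.939 (0.828 to 1.06). For both Jagged ligands, then, the counting interval reached from a small fall to a small rise.

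Dll1, on chromosome 17 (15367354 to 15376932), is the Delta-like ligand that acts in neural progenitors and somites. It was at 1.26, 1.19 and 1.19 FPKM in control libraries, or 34, 35 and 32 fragments. The null libraries were at 0.264, 1.02 and 0.892 FPKM, or 7, 30 and 24 fragments. All null libraries lay below the control libraries, but null replicate 1 stood far from the other null libraries, its 7 fragments having an exact Poisson interval of 2.81 to 14.4. The null mean was 0.596 times the control mean, and 0.786 times without null replicate 1. The ratio of summed fragments was 0.605 (0.433 to 0.840). Dll1 was outside the main test. With no minimum on FPKM, limma gave a log2 fold change of -0.39 and an adjusted p of 0.197.

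Dll3, on chromosome 7 (28293555 to 28301785), is a divergent ligand known to act inside the signalling cell and to inhibit Notch in cis. It was at 1.04, 0.787 and 1.11 FPKM (17, 14 and 18 fragments) in the control libraries, against 1.12, 2.13 and 1.29 FPKM (18, 38 and 21 fragments) in the null ones. The null libraries lay above the control libraries, null replicate 1 only just, while null replicate 2 was far above all the others. Dll3 had a log2 fold change of 0.33 (SE 0.16, limma adjusted p = 0.182) and dropped to 0.16 without null replicate 2. The fragment ratio was 1.57 (1.09 to 2.30). Dll4, a ligand of blood vessels, had 5 fragments in the control and 3 in the null libraries, too few to compare.

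**Figure D2:**
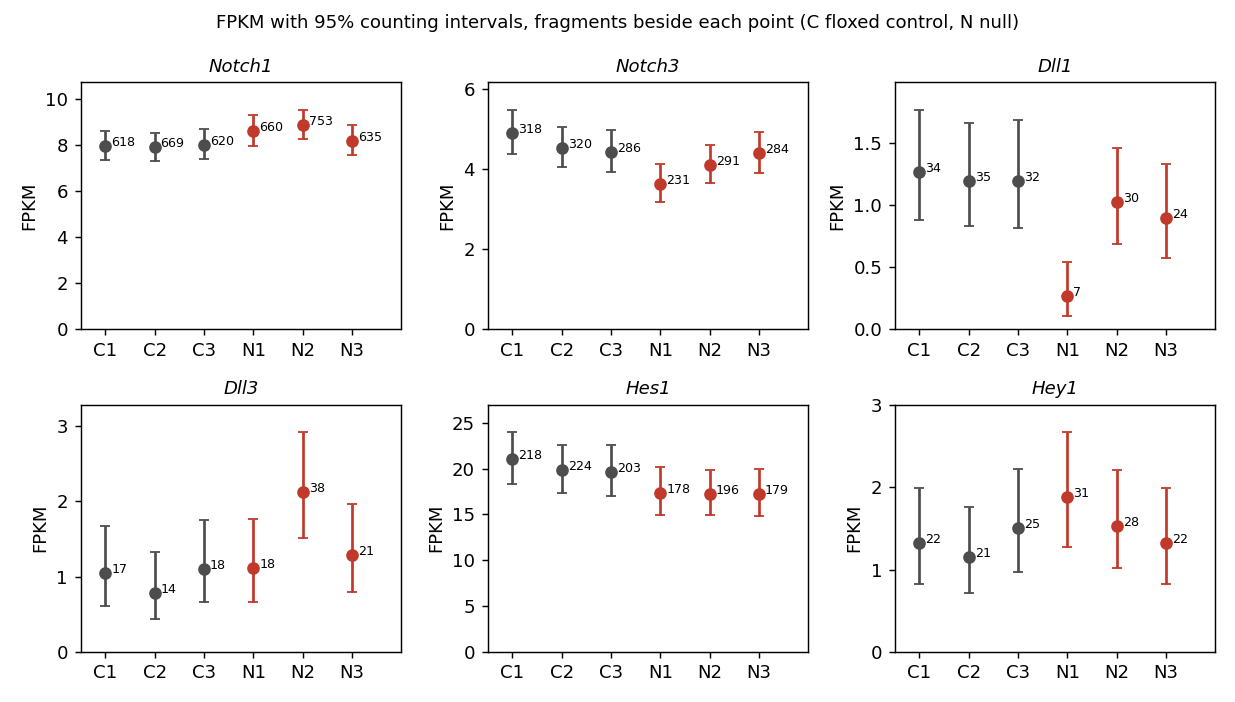
FPKM of 6 Notch genes in control replicates 1 to 3 (C1 to C3, grey) and null replicates 1 to 3 (N1 to N3, red), with bars for the exact 95% Poisson counting interval and the number of fragments beside each point. The intervals of Dll1, Dll3 and Hey1 are wide because they rest on 7 to 38 fragments, and those of Hes1 overlap between all 6 libraries.

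Rbpj, on chromosome 5 (53555779 to 53657445), encodes the DNA-binding protein through which all Notch receptors act and which represses targets in their absence. It was at 86.8, 86.0 and 88.1 FPKM in the control libraries, against 106, 94.8 and 94.5 in the null ones. The null libraries all lay above the control libraries, with null replicate 1 the highest. The mean rose by 13.1%, from 87.0 ± 1.08 to 98.4 ± 6.48 FPKM, a log2 fold change of 0.17 (SE 0.05, limma adjusted p = 0.0413). The call is marginal: without null replicate 1 the log2 fold change was 0.12 at an adjusted p of 0.0444, while leaving out any other single library gave 0.0517 to 0.12. The adjusted p was also 0.132 with quantile normalization, 0.0803 without a variance trend, 0.0629 with a replicate block and 0.0603 with no minimum on FPKM. The reference lists 3 Rbpj pseudogenes, on chromosomes 4 and 6, which could share reads with it.

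Hes1, on chromosome 16 (30065357 to 30067796), encodes a repressor that is a primary target of Notch in many tissues and answers to other signals as well. It was at 21.0, 19.8 and 19.6 FPKM in the control libraries, against 17.4, 17.3 and 17.3 in the null ones. All null libraries lay below all control libraries. The mean fell from 20.1 ± 0.744 to 17.3 ± 0.0708 FPKM, 14.1% lower, with a log2 fold change of -0.21 (SE 0.05, limma adjusted p = 0.0176). Its fragments numbered 218, 224 and 203 in control and 178, 196 and 179 in null libraries, a ratio of 0.859 (0.766 to 0.964). The counting error of this ratio, 0.08 on the log2 scale, is larger than the SE of the fit, and the null libraries lay closer together than counting error alone would place them on average. The adjusted p was 0.0668 without control replicate 1 and 0.0511 without control replicate 2.

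Hey1, on chromosome 3 (8663359 to 8667038), encodes a related repressor that is often induced together with Hes1. It was at 1.32, 1.16 and 1.5 FPKM (22, 21 and 25 fragments) in the control libraries, against 1.88, 1.53 and 1.32 FPKM (31, 28 and 22 fragments) in the null ones. The groups overlapped. Hey1 had a log2 fold change of 0.15 (SE 0.12, limma adjusted p = 0.395), and the ratio of 1.19 had an interval of 0.854 to 1.67. The summed level of Hes1 and Hey1 was 21.0 to 22.3 FPKM in control and 18.6 to 19.3 in null libraries, nearly all of it Hes1.

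**Figure D3:**
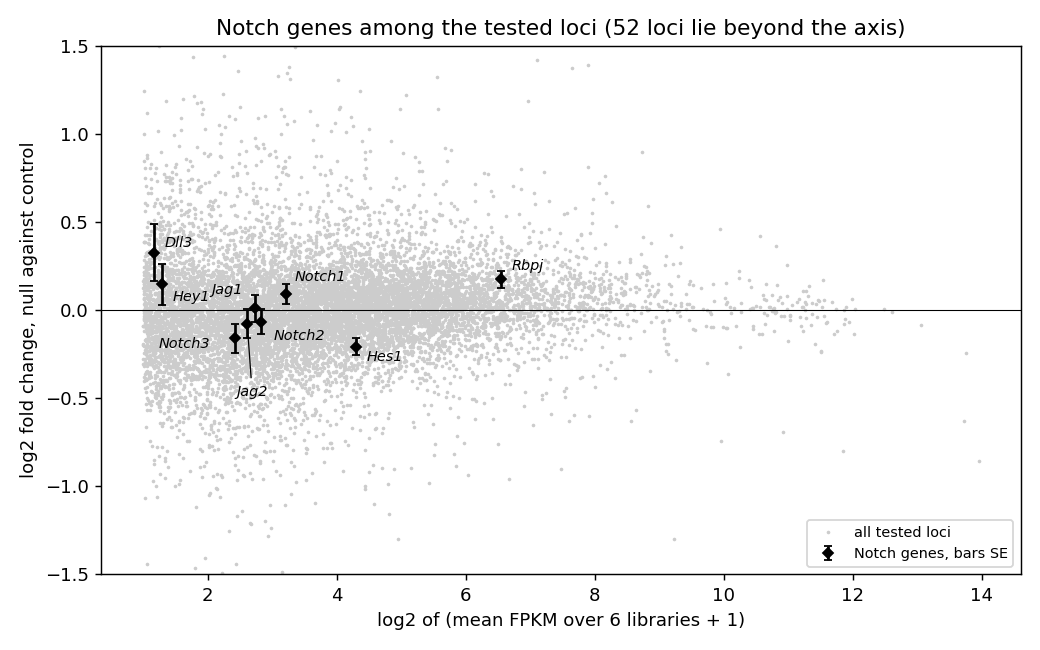
Log2 fold change on log2(FPKM + 1) of each tested locus (grey points) and of the 9 tested Notch genes (black diamonds, bars for the SE) against mean level; the axis ends at 1.5 and 52 loci lie beyond it. The Notch genes lie inside the cloud of all loci, from -0.21 for Hes1 to 0.33 for Dll3.

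Over the 10 genes, 6 had groups that did not overlap: Notch1, Notch3, Dll1, Dll3, Rbpj and Hes1. Of the 9 tested genes it was 5, beside 44.1% of all tested loci. For each of the 6 the exact two-sided permutation test of the 6 libraries gave p = 0.1, the smallest that 20 assignments allow. Any gene without overlap gives this p, so the test adds nothing to the lack of overlap. Notch1, Dll3 and Rbpj lay above and Notch3, Dll1 and Hes1 below the control libraries. Receptors thus held genes on both sides of the control. Of the ligands only Dll3 lay above, and in fragments it tied: null replicate 1 and control replicate 3 each had 18. Loci of the chromosomes that carry these genes had median log2 fold changes of -0.03 to 0.01, beside -0.13 for chromosome 11. The share called was 21.2% on chromosome 5 to 31.1% on chromosome 12, beside 34.1% on chromosome 11. Such values cannot show a change of part of a chromosome, which was not tested.

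The other genes of the pathway were taken from lists by role, and all 85 were found, 57 of them above the minimum. By the same limma test 8 rose and 9 fell, 17 of 57 or 29.8%, beside the 25.2% of all tested loci. Their median log2 fold change was 0.03.

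Among genes that cut the receptor, 0 of 8 rose and 2 fell, or 25% called beside 25.2% of all tested loci. Both that fell encode parts of gamma-secretase, the protease that frees the intracellular domain. Nicastrin (Ncstn) fell from 17.5 ± 1.0 to 14.0 ± 1.53 FPKM (limma adjusted p = 0.0342) and Aph1a from 11.7 ± 0.206 to 9.70 ± 0.572 (adjusted p = 0.0227). Ncstn passed without null replicate 3 and in no other leave-one-out fit (adjusted p = 0.0533 to 0.111), while Aph1a did not pass without any one of the control libraries or null replicate 2 (adjusted p = 0.0602 to 0.0823). The subunit gene Psenen was at 30.4 FPKM in control cells, against 31.7 without Zscan10 (adjusted p = 0.430), and the surface protease genes Adam10 and Adam17 did not pass either (adjusted p = 0.193 and 0.343). Of 6 genes whose enzymes add sugars to the receptors, limma called 0, and 1 had an unadjusted p under 0.05. Poglut1 was at 30.2 and 31.5 FPKM and Rfng at 13.0 and 11.1 (adjusted p = 0.523 and 0.106). The Fringe gene Lfng was at 1.84, 2.54 and 2.20 FPKM in the control libraries, against 2.05, 3.64 and 4.96 in the null ones (adjusted p = 0.181), the null libraries differing widely among themselves.

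The ubiquitin ligases that drive ligand endocytosis moved both ways. Mib2 rose from 10.2 ± 0.711 to 13.5 ± 1.03 FPKM (limma adjusted p = 0.0118) and Neurl1a fell from 3.92 ± 0.238 to 2.58 ± 0.357 (adjusted p = 0.0135). The other 3 tested genes of that list did not pass. Egfl7, a secreted protein that binds Notch receptors, rose from 27.2 to 32.2 FPKM on average (adjusted p = 0.0129); its gene hosts a microRNA.

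Among the 57 genes and the 9 Notch genes tested, Dtx1 had the largest change. It encodes a Deltex ubiquitin ligase that binds the receptor's intracellular domain and is itself known as a Notch target in lymphocytes. Dtx1 was at 7.81, 7.80 and 7.19 FPKM in the control libraries, against 3.53, 3.62 and 4.40 in the null ones. No null library came near the control libraries. The log2 fold change was -0.83 (SE 0.09, limma adjusted p = 0.00120), and the ratio of 347 null to 688 control fragments was 0.505 (0.443 to 0.576). The related Dtx2 rose from 7.90 ± 0.334 to 10.4 ± 0.426 FPKM (adjusted p = 0.00665), so the Deltex genes did not move one way. Dtx3 and Dtx3l did not pass (adjusted p = 0.104 and 0.197). Nedd4, a ubiquitin ligase with many substrates, fell from 335 ± 4.62 to 273 ± 11.7 FPKM (adjusted p = 0.00259). Numb and Itch, which lower receptor levels, did not pass (adjusted p = 0.208 and 0.0854): Numb went from 6.80 to 7.42 FPKM on average and Itch from 20.1 to 21.9. Of this list 1 rose and 2 fell among 11, or 27.3% beside 25.2% of all tested loci.

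Of 5 coactivator genes 1 rose and 1 fell, or 40% beside 25.2% of all tested loci. Maml1, the Mastermind coactivator that completes the RBPJ complex, fell from 8.83 ± 0.0877 to 6.95 ± 0.337 FPKM (limma adjusted p = 0.0104), a log2 fold change of -0.31. It lies on chromosome 11, whose median is given above. The pathway genes Rfng, Epn2, Ncor1 and Kat2a of that chromosome had log2 fold changes of -0.20, 0.13, 0.07 and 0.04. A part of the chromosome in the fall of Maml1 was not tested. Snw1, which also acts in splicing, rose from 85.0 ± 1.46 to 98.6 ± 3.01 (adjusted p = 0.00701). Maml2 and Maml3 were under 1 FPKM. Of 14 corepressor genes 2 rose and 1 fell, or 21.4% beside the same 25.2%. The histone deacetylase genes Hdac1 and Hdac2 rose from 152 ± 2.87 to 175 ± 6.05 and from 113 ± 4.44 to 128 ± 4.93 FPKM (adjusted p = 0.00880 and 0.0299). Hdac2 did not pass without control replicate 1 or 2 or null replicate 2 or 3 (adjusted p = 0.0636 to 0.0977). These proteins serve many pathways besides Notch.

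**Figure D4:**
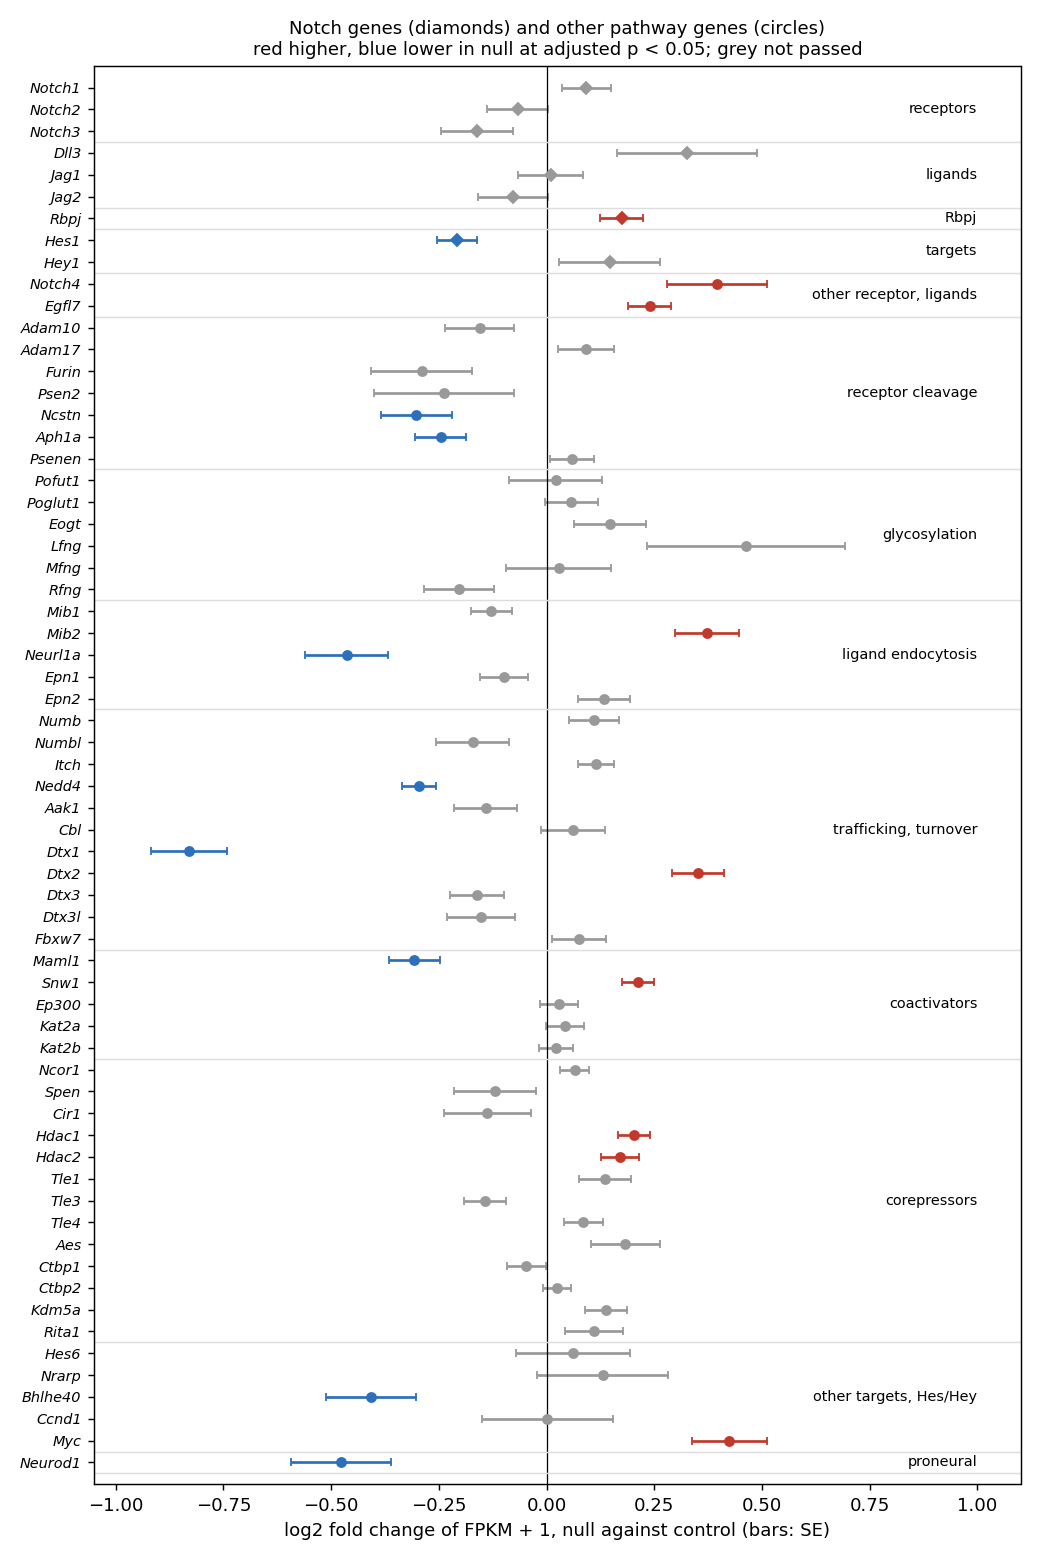
Log2 fold change with its SE for the 9 tested Notch genes (diamonds) and 55 other pathway genes (circles), by role, with genes past the threshold in red (higher in null) or blue (lower) and the rest in grey. Calls are scattered over the roles in both directions, and Dtx1 at -0.83 stands furthest from 0.

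Besides Hes1 and Hey1, 12 further targets or Hes and Hey family genes were examined, 5 of them above the minimum. Hes5, a target that ES cells switch on as they turn neural, had 3, 1 and 0 fragments in control and 3, 3 and 2 in null libraries. Its promoter is the one with the 2 RBPJ sequences printed above. Hey2, Heyl, Hes2, Hes3, Hes7 and Helt were also under 1 FPKM in every library. Nrarp, a feedback inhibitor induced by Notch, was at 1.87, 2.51 and 1.47 FPKM in the control libraries, against 2.67, 1.90 and 2.07 in the null ones and did not pass (limma adjusted p = 0.561). Hes6, a family member that opposes Hes1, was at 8.24 and 8.62 FPKM (adjusted p = 0.761). Ccnd1, whose locus also holds a microRNA, was at 26.5 ± 1.05 and 27.1 ± 6.21 FPKM (adjusted p = 0.996). Myc rose from 11 ± 0.537 to 15.1 ± 1.83 FPKM (adjusted p = 0.0129) and Bhlhe40 fell from 7.59 ± 0.928 to 5.47 ± 0.645 (adjusted p = 0.0286). Both answer to many signals. Bhlhe40 did not pass without control replicate 1 or 2 or null replicate 1 or 3 (adjusted p = 0.0696 to 0.0918).

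Of 8 genes of neuronal fate that HES proteins repress, 7 lay under the minimum, among them Neurog1 and Neurog2, and Olig2 was at 0 in all libraries. Neurod1, a neuronal differentiation factor, was at 1.94, 1.87 and 1.79 FPKM in the control libraries, against 0.796, 1.1 and 1.31 in the null ones. It fell by 0.48 on the log2 scale (SE 0.12, limma adjusted p = 0.0232), on 110 control and 63 null fragments. Its groups did not overlap. Neurod1 did not pass without any one of the control libraries or null replicate 2 (adjusted p = 0.0525 to 0.0692). Neurog3, under the minimum and so not tested, lay on the other side: it was at 0.539, 0.247 and 0.541 FPKM in the control libraries, against 0.729, 1.07 and 0.899 in the null ones. Its groups did not overlap, and its 15 control and 31 null fragments gave a ratio of 2.07 (1.08 to 4.13). Atoh1 had 2, 2 and 2 fragments in the control and 2, 4 and 3 in the null libraries, a ratio of 1.5 (0.478 to 5.13). Null replicate 1 thus had the count of each control library, and only the depth scaling set its FPKM above theirs.

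Among the named loci with patterns nearest to Rbpj over the 6 libraries were Asb1 and Tiparp, with root mean square differences of 0.02 and 0.03 on log2(FPKM + 1) relative to the control mean. Nearest to Hes1 were Dock4, Ccdc85b and Mapk9, each with 0.02. These are descriptions of 6 values per locus.

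The cells carried the defining genes of ES cells in every library: Pou5f1 averaged 538 ± 11.9 and 513 ± 28.2 FPKM with and without Zscan10, Sox2 272 ± 3.42 and 268 ± 7.56, and the 8 ES cell markers summed to 2435 to 2469 and 2178 to 2363 FPKM, Esrrb, Zfp42 and Tfcp2l1 having fallen. Neural markers summed to 79.7 to 88.7 FPKM in control and 61.5 to 70.2 in null libraries. Most of that was Tubb3, which fell from 67.1 to 51.4 FPKM (limma adjusted p = 0.0202), as did Pax6 from 9.96 to 7.85 (adjusted p = 0.0241). The other 3 tested markers did not pass: Sox1 was at 1.44 and 1.25 FPKM (adjusted p = 0.472), Map2 at 1.90 and 1.52 (adjusted p = 0.141) and Nes at 4.35 and 4.75 (adjusted p = 0.564). Fabp7, Dcx and Zic1 were under 1, with 3, 4 and 4 fragments in the control and 1, 3 and 12 in the null libraries. Dcx has more than 1 accession, so its numbers are the smallest possible. Endoderm markers summed to 4.81 to 6.13 and 3.44 to 4.85 FPKM, fibroblast markers to 4.66 to 5.44 and 4.26 to 4.75, and mesoderm markers to 1.70 to 2.09 and 1.58 to 1.87. Of the 10 fibroblast markers 8 were under 1 FPKM in every library. Thy1 rose from 1.65 to 2.98 FPKM (adjusted p = 0.0215). The collagen genes Col1a1 and Col1a2, both under the minimum, had 85 and 145 fragments in the control and 10 each in the null libraries. The collagen genes Col3a1 and Col6a1 averaged 0.363 and 0.142 FPKM in the control and 0.395 and 0.112 in the null libraries. Their groups overlapped. Of the endothelial markers, Pecam1, which ES cells also express, was at 29.1 and 30.3 FPKM, Tek fell from 4.44 to 2.14 (adjusted p = 0.00183), and Cdh5 and Tie1 were under 1, with Emcn at 0. Of the neural and fibroblast markers, Tubb3, Pax6, Map2, Col1a1, Col1a2, Pdgfra and Postn were lower in the null libraries without overlap. Groups without overlap are common, at 44.1% of all tested loci. The smallest whole fragment numbers in the control and null libraries were 92 and 51 for Pdgfra and 3 and 0 for Postn. Both loci have more than 1 accession, so these numbers are less certain. Thy1 was higher without overlap, and the groups of the other neural and fibroblast markers overlapped. Tek, Tie1, Kdr and Dab2 of the endothelial, mesoderm and endoderm lists were also lower without overlap, and the rest of those lists overlapped. The part of cells with such markers in the differences of the Notch genes was not tested.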

How the data were processed

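Per the labels' protocols, the libraries came from total RNA without ribosomal RNA. TopHat, Cuffdiff, Trim Galore, FastQC and the build mm10 are named in the submitters' processing notes, with neither version nor role. The authors deposited 1 value per locus and library, taken here as FPKM from the values themselves. Strand use is not stated, and Notch1, Notch3, Dll1 and Rbpj overlap antisense transcripts. Gene coordinates are those of RefSeq on GRCm38.p6, matched by symbol.

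Loci averaging 1 FPKM or more were tested with limma 3.58.1 in R 4.3.3 (mean-variance trend, two-sided) on log2(FPKM + 1), a scale that understates changes of low genes, over all loci, at 0.05. Fragments are FPKM times relative depth divided by the largest step that leaves all 6 values whole within 0.03. This succeeded for 96.6% of 8659 tested loci with 1 accession and 12.8% of 2821 with more. Fragment numbers are thus the smallest that the values allow. They were used for 95% counting intervals only.

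The genes and lists were chosen with earlier results of these data known. Named were the 10 genes, list genes past the threshold or else the 2 highest, leading markers, and the 3 nearest patterns to the most significant riser and faller. Adam10, Adam17, Psenen, Lfng, Numb, Itch, Dtx3, Dtx3l, Nrarp, Hes6, Ccnd1, Hes5, Dll4 and the genes under 1 FPKM were named after their values were seen. Some genes that the rule names are not reported here, though they are in the counts. Alternatives changed the pseudocount, the minimum, the scaling, the variance trend, a replicate block and each library in turn.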

Additional observations from a re-analysis of the deposited data

How the results depend on the processing

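The number of Notch genes called fell from 2 to 1 with no minimum, quantile normalization, no variance trend or a replicate block, and ran from 0 to 2 when each library was left out in turn. In the 4 single-choice cases the lost call was Rbpj, whose log2 fold change was 0.17, 0.12, 0.17 and 0.17, and 0.12 to 0.20 with libraries left out. Hes1 kept its direction in every alternative run, at -0.23 to -0.18 with libraries left out. Jag1 changed sign, from -0.040 to 0.049, when single libraries were left out, and never passed. All calls ran from 1697 to 2903 and those of the other pathway genes from 10 to 15 with libraries left out, against 2894 and 17. Dll1 kept a ratio below 1, from 0.475 to 0.786. For Hes1 and Dll1, whose groups did not overlap, leaving out a library could not change the direction. Dtx1, Dtx2, Egfl7, Hdac1, Maml1, Mib2, Myc, Nedd4, Neurl1a and Snw1 passed in every alternative run on them, while the other 7 called pathway genes lost the threshold in 5 to 8. The causes were not tested. The minimum of 5 FPKM leaves out Notch3, Dll3 and Hey1. Same-numbered libraries did not vary together (correlations of deviations of -0.0024, 0.108 and 0.0527), so the numbers were not taken as pairs. With the replicate block 2264 loci were called, and Rbpj, at 0.17, was the Notch gene that lost its call. Depth limits Dll1, Dll3 and Hey1 most, each at 7 to 38 fragments a library.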
